A study of Mus musculus with 5 samples.

Results

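The cytosolic ribosomal protein genes were followed in bulk RNA sequencing of mouse brain that carried a GL261 glioma. They were chosen by name alone, as protein-coding genes whose symbol starts with Rpl or Rps and a digit, together with Rplp0, Rplp1, Rplp2 and Rpsa and without the Rps6k kinases. This gave 92 of the 55573 genes in the count tables. Of these, 77 are the canonical genes of the ribosome, 31 of the small and 46 of the large subunit. A further 8 are paralogues such as Rps27l and Rpl22l1. The other 7 are 6 genes named as pseudogenes but annotated as protein-coding, and Rps19bp1, which encodes a protein that binds RPS19 and is not part of the ribosome.

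GL261 is a mouse glioma cell line, here carrying a luciferase/mKate2 vector, and it was implanted in the right striatum of C57BL/6 females aged 7 to 8 weeks. The comparison asks what UMBO, the opening of the blood-brain barrier with ultrasound, does to expression in the tumor-bearing hemisphere when no antibody is given. The 3 vehicle mice received inVivoPure pH 6.5 dilution buffer and the 2 UMBO mice were sonicated, with sessions on days 21 and 24 in both groups, and the right hemisphere was taken 24 h after the last session. All 5 mice thus carried tumors of the same line, no library is from a tumor-free brain, and vehicle replicates 1 to 3 and UMBO replicates 1 and 2 are the only libraries analysed here. The study's methods divide the mice into 2 groups and a figure caption gives n = 3, but only 2 UMBO libraries were analysed here. The sources do not say whether UMBO mice were also given buffer or vehicle mice a sham session.

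The ribosome is built from ribosomal RNA and a set of proteins that are needed in near equal numbers, and cells that grow and divide make more of it. Messenger RNAs for these proteins typically begin with a C and a run of pyrimidines, the 5′ terminal oligopyrimidine (5′ TOP) tract, through which mTOR signalling and LARP1 set their translation and stability. In brain, neurons, glia, blood-derived cells and tumor cells all express these genes, at levels that differ between cell types. RNA from a whole hemisphere therefore cannot tell more cells of a type that is rich in these transcripts from more transcript per cell.

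The starts of some of these transcripts are printed to show the pyrimidine tract described above. They are examples with and without a tract at the annotated start. They do not reflect how often the family has one there, which is given below. The bases are those from RefSeq (GRCm38.p6), 20 before and 20 after the annotated start, in the direction of transcription, with the pyrimidine tract in capitals where one begins exactly at that start.
Rps6, chr4:86857348-86857387, minus strand: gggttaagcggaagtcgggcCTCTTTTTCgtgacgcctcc
Rps27, chr3:90213629-90213668, minus strand: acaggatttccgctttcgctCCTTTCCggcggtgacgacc
Rps18, chr17:33955646-33955685, minus strand: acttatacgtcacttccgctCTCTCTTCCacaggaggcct
Rpl15, chr14:18270967-18271006, minus strand: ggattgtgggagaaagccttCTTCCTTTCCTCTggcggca
Rpl28, chr7:4792945-4792984, plus strand: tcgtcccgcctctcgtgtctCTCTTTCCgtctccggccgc
Rpl35, chr2:39005112-39005151, minus strand: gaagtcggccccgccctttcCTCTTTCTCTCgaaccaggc
Rplp0, chr5:115559447-115559486, plus strand: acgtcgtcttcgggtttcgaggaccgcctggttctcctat
Rps12, chr10:23787190-23787229, minus strand: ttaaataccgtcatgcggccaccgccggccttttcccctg
Rpl4, chr9:64173367-64173406, plus strand: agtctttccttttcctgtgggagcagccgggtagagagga

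Of 57 canonical genes with an entry in the RefSeq promoter table, 13 (22.81%) had a C followed by at least 4 C or T bases exactly at an annotated start. This was so for 0 of 69 mitochondrial ribosomal protein genes and for 3.01% of all 27025 genes in that table. Within 5 bases of the start the shares were 47.37% of the canonical genes, 24.64% of the mitochondrial set and 21.16% of all genes. Both sets of shares depend on where RefSeq places the start, and do not say how many of these transcripts carry a tract. Rplp0, Rps12 and Rpl4 had no such tract within 5 bases of the start that RefSeq gives, which says only that these letters are not there. In each of them such a run of letters does occur farther from that start, within the printed bases. Over the window from 250 bases before to 50 after the start, searched on both strands, CCGGAAG (the ETS-type element) was found in 42.11% of canonical genes, 37.68% of the mitochondrial set and 9.93% of all genes. TATAAA was found in 10.53%, 7.25% and 15.67%, respectively. The matches describe the sequences only.

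The libraries held between 59736771 and 86164159 counts, and UMBO replicate 2 stood apart from the other 4. The chi-square per gene between UMBO replicate 2 and the others lay between 270 and 651, against 52.2 to 116 among the other 4, where sampling noise alone gives about 1. Every listed marker of neurons, astrocytes and oligodendrocytes was detected in all 5 libraries. In the order vehicle 1, 2, 3, UMBO 1, 2, the summed level in CPM, counts scaled by library total and edgeR's TMM factor, was 9280, 6310, 6290, 6470 and 3400 for 10 neuronal markers. The same sums were 45.3, 104, 30.7, 107 and 474 for 10 proliferation markers, and 39.6, 156, 63.5, 134 and 562 for 10 monocyte and macrophage markers. For 10 microglial markers they were 436, 611, 528, 819 and 922, and for 5 red blood cell genes 71.8, 147, 165, 181 and 216. The 10 endothelial markers held 0.0183%, 0.0286%, 0.0278%, 0.0352% and 0.0436% of the counts. Of the lists with values given so far, all but the neuronal one were highest in UMBO replicate 2, where the neuronal one was lowest. Astrocyte, oligodendrocyte and choroid plexus sums were also lowest in UMBO replicate 2, at 3950, 5630 and 502 CPM. In the other libraries they were 4160 to 6090, 6170 to 6560 and 814 to 863 CPM. The T cell sum was highest there, at 50.5 CPM against 13.2 to 35.1 CPM. The proliferation, microglial, endothelial and red blood cell sums were higher in each UMBO mouse than in any vehicle mouse. The part of these lists in the results on the ribosomal protein genes was not tested.

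Ribosomal protein genes took a larger share of the reads in UMBO replicate 2 than in any other library. Of all counts, the 92 genes held 0.997%, 1.79% and 1.09% in the vehicle mice (replicates 1 to 3) and 1.45% and 4.41% in the UMBO mice (replicates 1 and 2). The group means were 1.29 ± 0.436% (SD, n = 3) and 2.93 ± 2.09% (SD, n = 2), so the groups overlapped, with UMBO replicate 1 below vehicle replicate 2. Without UMBO replicate 2 the difference between the groups was 0.158 percentage points, against 1.64 with it. Small and large subunit genes followed the same order, at 0.401%, 0.748%, 0.441%, 0.594% and 1.92% for the small subunit and 0.586%, 1.03%, 0.636%, 0.844% and 2.45% for the large subunit.

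**Figure D1:**
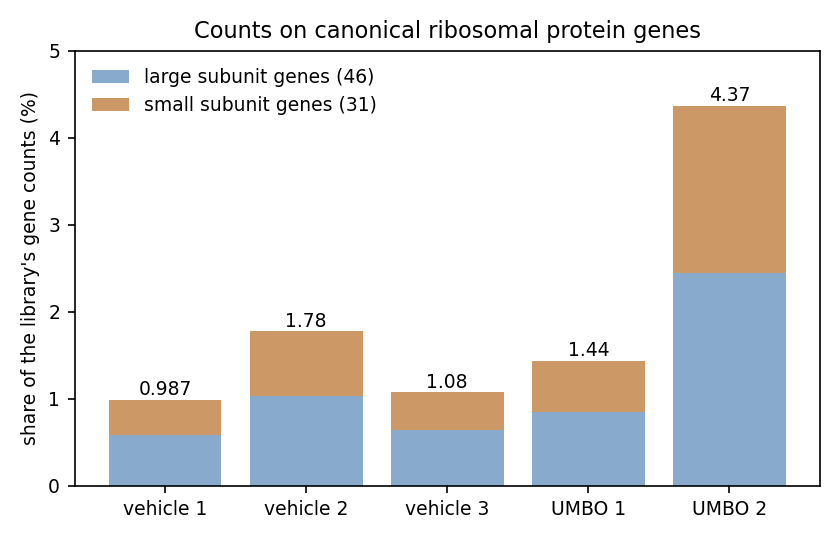
Bars give the share of each library's gene counts (%, from 0) that fell on the 46 large subunit and 31 small subunit genes, stacked, for each of the 5 libraries. The stacked shares run from 0.987% in vehicle 1 to 4.37% in UMBO 2, and UMBO 1 (1.44%) lies between vehicle 3 (1.08%) and vehicle 2 (1.78%).

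The levels of the family differed together from mouse to mouse, in an order that crossed the treatment groups. Levels are again TMM-scaled CPM. UMBO replicate 2 was the highest library for 87 of the 88 genes with enough counts to be tested (98.9%), against 40.4% of all 23592 genes tested. UMBO replicate 1 lay below vehicle replicate 2 for 86 of 88 (97.7%, against 50.1% of all genes). For 53 of 88 genes (60.2%, against 8.24%) the libraries stood in a single order, from vehicle 1 through vehicle 3, UMBO 1 and vehicle 2 to UMBO 2. These counts describe an order noticed in these same libraries and carry no test.

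Over the 77 canonical genes, the level in UMBO replicate 2 was between 1.81 times (Rpl3) and 5.9 times (Rps12) the vehicle mean, with a median of 2.92. In UMBO replicate 1 it was between 0.971 times (Rpl30) and 1.26 times (Rplp0) the vehicle mean, with a median of 1.09. Vehicle replicate 2 was itself above the mean of the other 2 vehicle mice for every canonical gene, by 1.2 times (Rpl4) to 2.44 times (Rps12). Rps12 was the highest gene in both, while Rpl3 (1.24 times in vehicle replicate 2) and Rpl4 (1.86 times the vehicle mean in UMBO replicate 2) were near the low end of both. Across the 77 genes, the log2 ratio of vehicle 2 to vehicle 1 and that of UMBO 2 to vehicle 3, which share no library, had a Pearson's r of 0.632 and a Spearman's rho of 0.698. Over 23459 of the genes tested the same coefficients were 0.689 and 0.706. Genes are not independent replicates, and these coefficients are descriptions that also carry the depth and quality of each library.

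**Figure D2:**
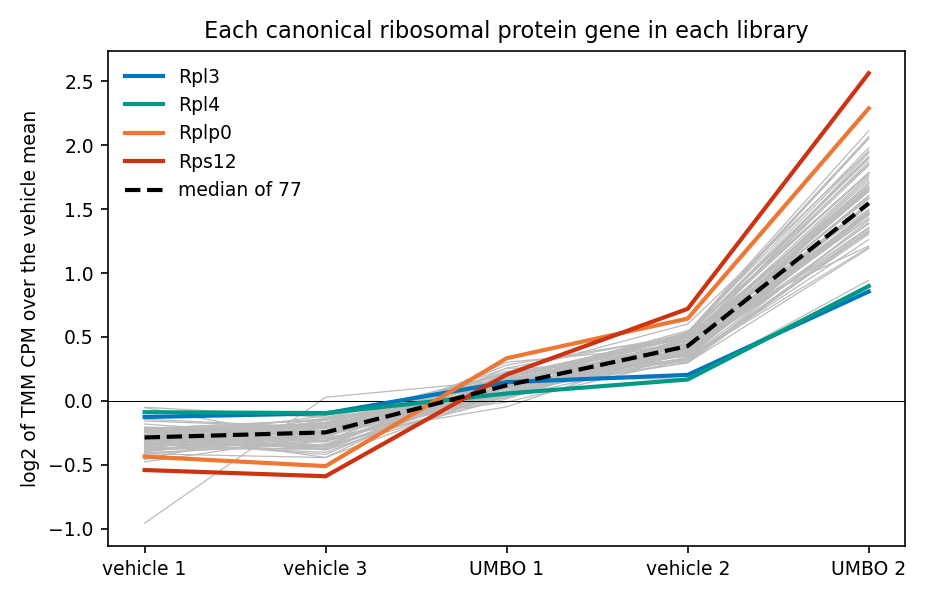
Each grey line is 1 of the 77 canonical ribosomal protein genes, as log2 of its TMM-scaled CPM over the vehicle mean in each of the 5 libraries, ordered along the axis by the family's level and not by treatment; the dashed line is the median. In UMBO 1 the lines lie between 0.971 times (Rpl30) and 1.26 times (Rplp0) the vehicle mean, with a median of 1.09. In UMBO 2 they spread from 1.81 times (Rpl3) to 5.9 times (Rps12).

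Among the tested genes only Rpl15, a large subunit protein needed for ribosome assembly, was higher in each UMBO mouse than in any vehicle mouse, which 11.5% of all genes were. Its levels were 114, 133 and 108 CPM with vehicle and 133 and 227 CPM with UMBO, so UMBO replicate 1 and vehicle replicate 2 were equal to 3 digits. With scaling by library size alone, 0 of the 88 genes had separate groups. No gene had both UMBO libraries below every vehicle library, against 11.4% of all genes.

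No ribosomal protein gene passed the test between UMBO and vehicle. By edgeR's quasi-likelihood test, 0 of the 88 genes, and 0.0% of all 23592 genes, had a Benjamini-Hochberg adjusted p under 0.05, and the smallest adjusted p was 0.497. By the Wald test of DESeq2 it was also 0 of the family, among 26 higher and 13 lower genes in all. The estimate was nevertheless above 0 for 87 of the 88 genes (50.9% of all genes), with a median log2 fold change of 0.99 against 0.0124 over all genes. The small subunit median was 1.00 and the large subunit median was 0.981. At an unadjusted p under 0.05, edgeR gave 7 higher genes, against 5.3% of all genes, and 0 lower genes, against 2.06%. DESeq2 gave 54 higher genes at that unadjusted threshold, against 4.87% of the 40434 genes to which it gave a p-value.

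Both UMBO mice did not contribute alike to this estimate. The median log2 fold change of the family was 0.118 without UMBO replicate 2 and 1.52 without UMBO replicate 1. Without UMBO replicate 2, 0 genes of the family had an unadjusted p under 0.05 by edgeR, against 1.15% of all genes in the higher direction. Without UMBO replicate 1, edgeR gave 82 genes of the family an adjusted p under 0.05, against 10.1% of all genes in the higher and 8.21% in the lower direction, but this sets a lone mouse against 3 and assumes that it varies as the vehicle mice do. The 7 genes at an unadjusted p under 0.05 became 46 without vehicle replicate 2, and 0 when vehicle replicate 1 or 3 was left out instead. Among all genes the higher share at that threshold was 9.36% when vehicle replicate 2 was left out, 0.838% for vehicle replicate 1 and 0.945% for vehicle replicate 3.

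**Figure D3:**
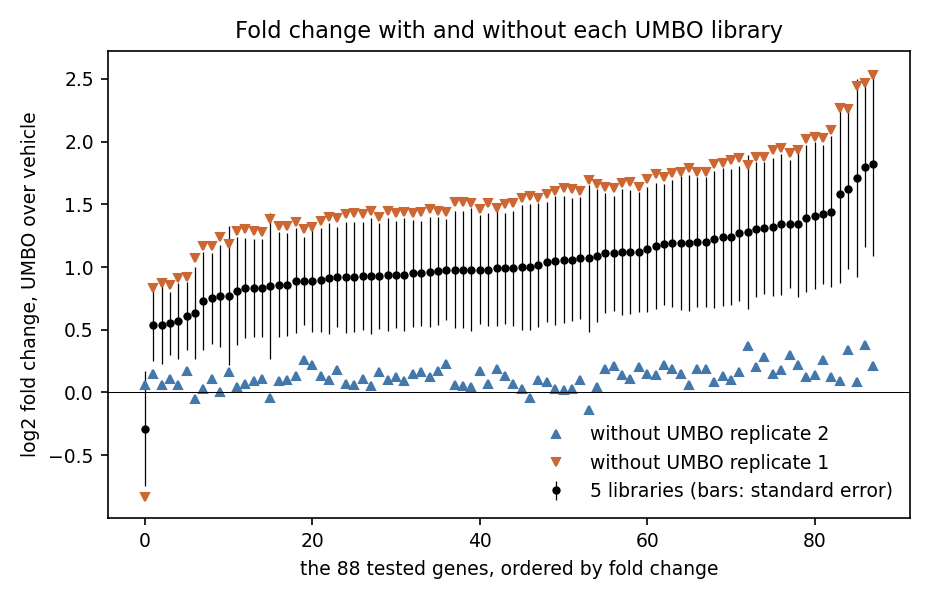
Black points give the log2 fold change (UMBO over vehicle, edgeR) of the 88 tested genes with 1 standard error, ordered by size; triangles give the same estimate with either UMBO library left out. The estimates center on a median of 0.99, those without UMBO replicate 2 on 0.118 and those without UMBO replicate 1 on 1.52, and Rpl3l is the only point below 0 with all 5 libraries.

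The 7 genes at an unadjusted p under 0.05 were Rps27l, Rps2, Rpl18, Rplp0, Rpl22, Rps9 and Rps12, of which Rps9 and Rps12 are named after their values were seen. Rps27l (chr9:66946086-66949516) encodes a close relative of the small subunit protein RPS27 and is a known target of p53. It was at 8.69, 18.0 and 8.77 CPM with vehicle and at 15.4 and 66.8 CPM with UMBO. Its log2 fold change was 1.80 ± 0.64 (SE), with an adjusted p of 0.497 and an unadjusted p of 0.031 by edgeR's quasi-likelihood test, and UMBO replicate 1 was below vehicle replicate 2.

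Rps2 (chr17:24718116-24721929), a small subunit protein near the site where mRNA enters, was at 203, 324 and 192 CPM with vehicle and at 296 and 921 CPM with UMBO. Rps9 (chr7:3703993-3706897), which acts in decoding accuracy, was at 142, 265 and 152 CPM with vehicle and at 226 and 700 CPM with UMBO. Both had UMBO replicate 1 between the vehicle libraries. Their log2 fold changes were 1.34 ± 0.51 and 1.31 ± 0.526 (SE), with adjusted p = 0.497 by edgeR for each.

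Rps12 (chr10:23785183-23787275), in the beak of the small subunit, had the largest estimate of the family, 1.82 ± 0.735 (SE). Its levels were 121, 290 and 117 CPM with vehicle and 203 and 1040 CPM with UMBO, so UMBO replicate 1 lay inside the vehicle range. Of its 100-base windows, 81.6% occur in the transcript of another gene, mostly Rps12-ps3, so reads may be divided between the copies.

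Among the large subunit genes, Rpl18 (chr7:45715457-45720836) was at 73.9, 134 and 73.0 CPM with vehicle and at 112 and 389 CPM with UMBO. Rpl22 (chr4:152325742-152334071), an RNA-binding protein at the ribosome's surface, was at 88.8, 121 and 84.9 CPM and at 117 and 247 CPM. UMBO replicate 1 lay below vehicle replicate 2 for both. The log2 fold changes were 1.42 ± 0.554 for Rpl18 and 0.89 ± 0.353 for Rpl22 (SE). Rpl18 overlaps Sphk2 on the other strand, and no source used here says if reads were assigned by strand.

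The stalk of the large subunit, where elongation factors dock, is formed by Rplp0, Rplp1 and Rplp2. Rplp0 (chr5:115559467-115563727) was at 159, 336 and 151 CPM with vehicle and at 271 and 1050 CPM with UMBO, a log2 fold change of 1.62 ± 0.634 (SE). Rplp1 was at 199, 362, 222, 298 and 738 CPM in the order vehicle 1, 2, 3, UMBO 1, 2, and Rplp2 at 72.7, 140, 78.0, 105 and 402 CPM. All 3 stalk genes were highest in UMBO replicate 2 and lower in UMBO replicate 1 than in vehicle replicate 2. The level in UMBO replicate 2 was 4.9 times the vehicle mean for Rplp0, 4.14 times for Rplp2 and 2.83 times for Rplp1.

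Rpl5 and Rpl11, which bind 5S rRNA and, outside the ribosome, the p53 regulator MDM2, had smaller estimates. Rpl5 was at 157, 234 and 152 CPM with vehicle and at 197 and 508 CPM with UMBO (log2 fold change 0.96 ± 0.435, SE). Rpl11 was at 142, 203 and 149 CPM with vehicle and at 177 and 377 CPM with UMBO (0.75 ± 0.363, SE). In both, vehicle replicate 2 exceeded UMBO replicate 1.

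Of 3 small subunit genes known for other roles, Rps6, the substrate of the S6 kinases, was at 112, 163 and 117 CPM with vehicle and at 139 and 325 CPM with UMBO. Rps19, mutated in Diamond-Blackfan anemia, was at 75.7, 132 and 80.9 CPM with vehicle and at 106 and 327 CPM with UMBO. Rpsa, also described as the laminin receptor, was at 276, 420 and 284 CPM with vehicle and at 338 and 952 CPM with UMBO. Their log2 fold changes of 0.83 ± 0.391, 1.17 ± 0.502 and 0.98 ± 0.466 (SE) did not pass the test.

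The make-up of the family differed between libraries, as the share of all ribosomal protein counts that each gene took. Rpl4 and Rpl3, the latter close to the peptidyl transferase center and both chosen after their values were seen, had their lowest shares in UMBO replicate 2. Rpl4 took 3.78%, 2.79% and 3.71% of the family's counts with vehicle and 3.16% and 2.03% with UMBO. Rpl3 took 3.21%, 2.49%, 3.23%, 2.93% and 1.73%. Rps12 and Rplp0 ran the other way, with 1.10%, 1.64%, 1.06%, 1.40% and 2.58% for Rps12 and 1.45%, 1.90%, 1.36%, 1.88% and 2.62% for Rplp0. In all 4 genes vehicle replicate 2 stood on the same side of the other vehicle mice as UMBO replicate 2, and UMBO replicate 1 was inside the vehicle range. Rpsa, by comparison, took 2.52%, 2.37%, 2.56%, 2.34% and 2.37%, with both UMBO libraries near the lowest vehicle library.

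Levels between genes were compared per kilobase of summed exon length, as a mean of the 5 libraries. Rplp1 was highest at 729 CPM per kb (lowest library 398, highest 1480), followed by Rps15 at 664 (386 to 1390), Rpl41 at 360 (165 to 868), Rpl17 at 348 (192 to 737) and Rps29 at 335 (198 to 639). Neighbors in this order overlapped over the libraries. Rplp1 and Rps15 held the first places in every library, but Rpl41 stood at position 3 only in UMBO replicate 2 (at 866), was at position 5 in vehicle replicate 2 and was not among the 5 highest in the other 3 libraries. The lowest of the tested genes were Rpl3l at 0.195 CPM per kb (0.121 to 0.266), Rpl36al at 0.485, Rpl24 at 0.809, Rps12-ps3 at 1.38 and Rpl36a-ps1 at 1.41. Per kilobase of the principal transcript, 3 of the 5 highest mean levels stayed, with Rps27 and Rps12 in place of Rpl17 and Rps29. Rps12 was among the 5 highest on that scale only in UMBO replicate 2, and Rps29 was among them in the other 4 libraries.

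Rpl24, a canonical large subunit gene, is among these because its counts were 25, 64, 56, 62 and 98 in the 5 libraries. It shares exons on the same strand with Gm28037, which was counted 0 in every library. Rps10 (179 to 472 counts) and Rpl13a (815 to 2533 counts) likewise share exons with RPS10-NUDT3 and Gm45713, each also counted 0 throughout. The levels of these 3 genes are uncertain, and they were named after their values were seen. Rpl36al, also among the lowest, shares exons on the same strand with Gm49383, so its level is uncertain too. Uncertainty also comes from sequence shared with other genes, either near-identical copies or genes that overlap on either strand. Over the canonical genes a median of 35.8% of the 100-base windows of a transcript occur unchanged in another gene's transcript, from 0% for Rps21 to 98.4% for Rps27. Both strands were searched, so overlapping neighbors count too, as for Rpl35 (83.0%), which shares most with Wdr38 on the other strand. The 24 tested members with at most 20% of windows shared had a median log2 fold change of 1.04, near the 0.99 of all members.

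The paralogues had a median log2 fold change of 0.709 over the 6 that could be tested. Rps27l, Rps27 and Rps27rt show how sequence bears on the counts. The coding sequences, from GENCODE M21 on GRCm38, are printed with capitals where Rps27l differs from Rps27.
Rps27 and Rps27rt: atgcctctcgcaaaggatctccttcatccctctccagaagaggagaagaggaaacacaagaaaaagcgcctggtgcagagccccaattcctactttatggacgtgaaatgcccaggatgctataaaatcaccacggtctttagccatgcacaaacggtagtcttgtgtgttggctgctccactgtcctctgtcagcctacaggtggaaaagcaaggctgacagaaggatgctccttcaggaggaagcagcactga
Rps27l: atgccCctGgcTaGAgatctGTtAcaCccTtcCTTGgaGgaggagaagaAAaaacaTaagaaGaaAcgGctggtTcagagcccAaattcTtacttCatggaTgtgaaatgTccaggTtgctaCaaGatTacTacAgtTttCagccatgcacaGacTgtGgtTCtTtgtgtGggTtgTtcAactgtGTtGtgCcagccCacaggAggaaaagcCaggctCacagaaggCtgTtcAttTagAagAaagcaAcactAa
Rps27rt did not differ from Rps27 at any of the 255 coding bases, so reads from the pair cannot be told apart there, and Rps27rt stood at 3.22, 6.41 and 3.70 CPM with vehicle and at 4.03 and 14.6 CPM with UMBO. Rps27l differed at 61 bases (76.1% identity), and none of its 100-base windows occurred in another transcript.

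A ratio of paralogue to canonical gene within a library does not depend on how libraries are scaled, and 7 pairs had counts in every library. The log2 ratio of Rps27l to Rps27 was -3.78, -3.57 and -3.87 with vehicle and -3.34 and -2.79 with UMBO, so both UMBO mice lay above all vehicle mice. The difference was 0.68, with a two-sided exact permutation p = 0.1, the smallest that 3 against 2 libraries allow, and an adjusted p of 0.583 over the 7 pairs. The ratio of Rpl22l1 to Rpl22, the canonical gene of that pair, was -1.23, -1.12 and -0.89 with vehicle and -1.28 and -1.47 with UMBO (exact permutation p = 0.2). Here both UMBO mice lay below all vehicle mice, the opposite direction to Rps27l. In every pair other than those of Rps27l and Rpl22l1 the groups overlapped. The ratio of Rpl7l1 to Rpl7 was -2.31, -2.65 and -2.25 with vehicle and -2.55 and -3.00 with UMBO (exact permutation p = 0.3). For Rpl3l, Rpl36al, Rpl39l and Rps4l (annotated as a transcribed pseudogene) the differences were -0.85, 0.00, 0.54 and -0.54, with exact permutation p-values between 0.4 and 1.0.

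**Figure D4:**
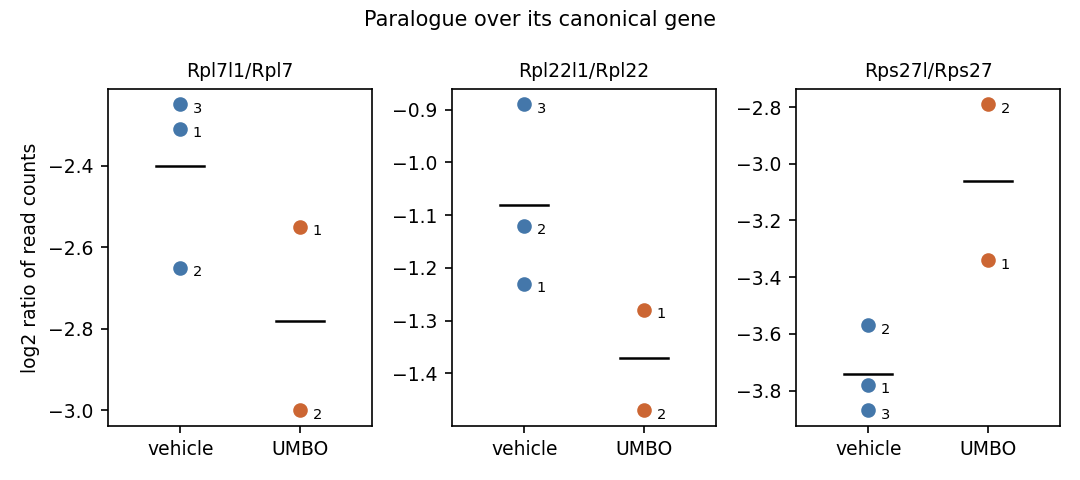
Each point is the log2 ratio of read counts of a paralogue to its canonical gene in 1 library, numbered by replicate, with a bar at the group mean, and the 3 panels have separate vertical scales. Rps27l/Rps27 lies at -3.87 to -3.57 with vehicle and at -3.34 and -2.79 with UMBO. Rpl22l1/Rpl22 lies at -1.23 to -0.89 with vehicle and at -1.28 and -1.47 with UMBO. Rpl7l1/Rpl7 overlaps between groups, with UMBO 1 at -2.55 and vehicle 2 at -2.65.

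Rpl3l, a paralogue of striated muscle, was the only tested gene with an estimate below 0. Its counts were 25, 18 and 37 with vehicle and 31 and 13 with UMBO, and its log2 fold change was -0.29 ± 0.459 (SE). Rpl22l1 was at 37.8 to 55.5 CPM with vehicle and at 48.4 and 89.1 CPM with UMBO (log2 fold change 0.57 ± 0.306, SE), and Rpl7l1 at 38.0 to 44.0 CPM and at 43.5 and 74.7 CPM (0.55 ± 0.254, SE). Rpl36al, a close copy of Rpl36a, had 28 to 50 counts with vehicle and 41 and 86 with UMBO. Because it shares exons with Gm49383, its low counts and its ratio to Rpl36a are uncertain. Rpl39l and Rpl10l, known from testis, had too few counts to test, with 9, 7, 3, 8 and 27 counts for Rpl39l and 1 count in all, in UMBO replicate 2, for Rpl10l.

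Of the 6 genes named as pseudogenes, the 3 with the highest counts were highest in UMBO replicate 2 and lower in UMBO replicate 1 than in vehicle replicate 2. Rpl10-ps3 was at 2.42, 5.81, 2.46, 3.80 and 17.5 CPM, Rpl9-ps6 at 5.88, 10.5, 6.07, 7.79 and 26.4 CPM and Rps12-ps3 at 0.241, 0.593, 0.236, 0.374 and 1.97 CPM, in the order vehicle 1, 2, 3, UMBO 1, 2. They share 95.8%, 80.2% and 100% of their windows with other genes, mostly with Rpl10, Rpl9 and Rps12, so these counts may be reads from the parents. Rpl36a-ps1 had 26, 42, 20, 44 and 94 counts. Rpl9-ps1 and Rpl36-ps4 had at most 5 and 4 counts in a library. Rps19bp1 was at 11.2, 15.4, 11.3, 12.2 and 27.0 CPM, and UMBO replicate 1 lay below the vehicle mean.

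Among ribosomal components outside the rule, Rack1 and Fau had the order of libraries that most of the family had. Rack1, a scaffold on the small subunit, was at 127, 231 and 132 CPM with vehicle and at 194 and 635 CPM with UMBO (log2 fold change 1.34 ± 0.536, SE), and it had an unadjusted p = 0.0462 and an adjusted p = 0.497 by edgeR. Fau, a ubiquitin-like fusion with S30, was at 90.2, 165 and 96.4 CPM with vehicle and at 133 and 393 CPM with UMBO. UMBO replicate 1 lay inside the vehicle range for both.

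Apart from Rack1 and Fau, each list of other genes of the translation machinery had a smaller median estimate than the ribosomal proteins, although single genes such as Vim (2.19) and Eif4ebp1 (2.11) had larger ones, and 0 of them had an adjusted p under 0.05 by edgeR or DESeq2. Over all genes tested, 50.9% had estimates above 0 and 5.3% were higher at an unadjusted p under 0.05 by edgeR. These shares stand beside the counts for each list. Of 27 other 5′ TOP genes, a list that also holds Rack1 and Fau, 27 had estimates above 0 (median log2 fold change 0.822), of which 5 reached an unadjusted p under 0.05. In this list Vim, an intermediate filament gene of glia and mesenchymal cells, was at 68.3, 250 and 83.5 CPM with vehicle and at 278 and 943 CPM with UMBO, above every vehicle library in both UMBO mice. Pabpc1, the poly(A)-binding protein, was at 276, 362 and 248 CPM with vehicle and at 366 and 839 CPM with UMBO. The mitochondrial ribosomal protein genes, a separate set with a similar task, had a median of 0.369, with 74 of 77 above 0 and 2 at an unadjusted p under 0.05. These were Mrps6, at 9.66 to 14.5 CPM with vehicle and at 14.0 and 31.1 CPM with UMBO, and Mrpl28, at 25.0 to 33.4 CPM and at 33.4 and 56.0 CPM.

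Genes of ribosome biogenesis and RNA polymerase I had a median of 0.349, with 77 of 89 above 0, against 50.9% of all genes. At an unadjusted p under 0.05 by edgeR there were 2 of them, against 5.3% of all genes in the higher direction. These were Polr1d, a subunit shared by polymerases I and III, at 26.8, 37.5, 26.1, 38.1 and 68.8 CPM in the order vehicle 1, 2, 3, UMBO 1, 2, and Nsa2, a large subunit assembly factor, at 38.1, 50.6, 35.5, 50.3 and 101 CPM. Initiation factors had a median of 0.389, with 31 of 38 above 0 and 1, Pabpc1, at an unadjusted p under 0.05. Among them Eif4ebp1, the translational repressor that mTOR inactivates, was at 3.30, 9.86, 2.47, 5.73 and 39.2 CPM. Elongation and termination factors had a median of 0.385, with 9 of 13 above 0 and 0 at an unadjusted p under 0.05 by edgeR. Their smallest p-values belonged to Eef1d and Eef1b2, subunits of the exchange factor for eEF1A, at 69.5 to 88.7 CPM and 118 to 195 CPM with vehicle, and at 84.4 and 188 CPM and 160 and 421 CPM with UMBO.

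As a list, the MYC and TOR genes did not follow the family, with a median of -0.115 and 5 of 13 above 0, against 50.9% of all genes. The list holds drivers such as Myc and inhibitors such as Tsc1, so its median pools opposite roles. UMBO replicate 2 was the highest library for 3 of the 13 (23.1%, against 40.4% of all genes), Myc among them. Myc, which drives transcription of ribosome genes, was at 7.08, 15.1 and 4.65 CPM with vehicle and at 11.2 and 54.4 CPM with UMBO, and its log2 fold change was 1.88 ± 0.744 (SE, unadjusted p = 0.0451 by edgeR). Tsc1, an inhibitor of mTOR complex 1, was at 97.1, 71.2 and 92.4 CPM with vehicle and at 68.8 and 47.4 CPM with UMBO, with a log2 fold change of -0.58 ± 0.246 (SE). Both UMBO libraries were below every vehicle library for Tsc1, while for Myc UMBO replicate 1 lay inside the vehicle range.

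**Figure D5:**
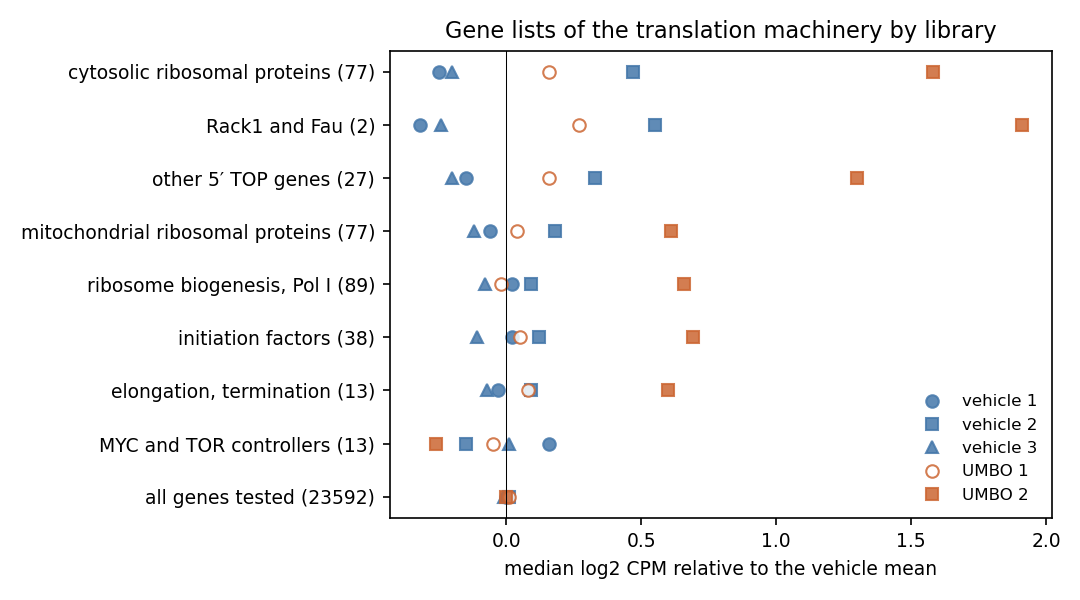
For each gene list of the translation machinery (number of genes in parentheses), points give the median over its genes of the log2 CPM in a library relative to the vehicle mean; blue marks the 3 vehicle and orange the 2 UMBO libraries. UMBO 2 lies farthest to the right for every list except the MYC and TOR genes (-0.26) and all genes (0.00), with 1.58 for the cytosolic ribosomal proteins against 0.61 for the mitochondrial ones, and UMBO 1 lies left of vehicle 2 except for the MYC and TOR genes (-0.05 against -0.15) and all genes (both 0.01).

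Transcript length was compared because libraries can differ in how they recover short transcripts. Over 16360 genes the log2 transcript length and the log2 ratio of UMBO 2 to vehicle 3 had a Pearson's r of -0.418 and a Spearman's rho of -0.481. Within the 77 canonical genes the same coefficients were -0.0848 and -0.0627. For the log2 ratio of vehicle 2 to vehicle 1 they were -0.393 and -0.487 over those genes and -0.307 and -0.37 within the family. Across the family, the share of windows found elsewhere had a Pearson's r of -0.111 with the log2 ratio of UMBO 2 to vehicle 3. Ribosomal protein transcripts are short, and the part of length in the family's level in UMBO replicate 2 was not tested.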

How the data were processed

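RNA-seq libraries of 3 vehicle and 2 UMBO mice were analysed, grouped and numbered by their labels. Per the submitters' processing notes the authors used STAR 2.7.2a and GRCm38 (mm10). They deposited raw counts of reads per Ensembl gene, without normalization. The annotation release and the use of strand are not given in the sources used here. Symbols, biotypes and positions were taken from GENCODE M21.

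In edgeR 4.0.16 (R 4.3.3), counts were scaled by TMM, genes were filtered with filterByExpr, and 23592 genes entered the quasi-likelihood test. Its p-values were adjusted after Benjamini and Hochberg and called under 0.05. The dispersion common to all genes was 0.118, and a prior count of 2 was used for log2 CPM. The p-values measure the spread among these mice only. Paralogue ratios were compared with a two-sided exact permutation test over 10 groupings. DESeq2 1.42.0, other scalings and filters, a replicate block and each library left out were alternatives.

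The ribosomal protein genes and all lists were chosen with earlier results of these data known. Named genes were the 5 with the smallest p in each direction, the 5 highest and lowest per length, paralogues and other symbols, stalk and 5S genes, Rps6, Rps19, Rpsa, and 2 per pathway list. Other genes (such as Rpl15, Rpl30, Rps21 and those whose starts are printed) were named after their values were seen. A gene of the pathway lists is not reported here. The scripts were tested on simulated data. Of 23592 genes with 200 changed 4-fold, edgeR called 136 of the changed and 9 unchanged genes, and DESeq2 185 and 89, at the estimated dispersions. At a dispersion of 0.01, edgeR called 200 and 9, and DESeq2 200 and 21. Each gene was drawn on its own, and no simulated library stood apart as UMBO replicate 2 does. These counts therefore do not say how the tests behave with such a library. Markers of T cells (13.2 to 50.5 CPM summed), choroid plexus (502 to 863), astrocytes (3950 to 6090) and oligodendrocytes (5630 to 6560) were also summed.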

Additional observations from a re-analysis of the deposited data

How the results depend on the processing

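With 2 UMBO mice, of which 1 stands apart, the comparisons rest on few mice with a wide spread between them. Depth limits the genes with few counts, such as Rpl3l, Rpl39l and Rpl10l. Scaling by library size alone moved the median of all genes from 0.0124 to 0.125, so changes under that setting are relative to it. Scaling by DESeq2's size factors, or by factors computed without mitochondrial or ribosomal protein genes, left the family's median between 0.963 and 0.998. With library size only, 1502 higher and 395 lower genes in all had an unadjusted p under 0.05 by edgeR. In the main setting, with library size only and with the replicate block, 23592 genes were tested, including 88 of the family. With no filter on low counts, 40435 were tested, including 92 of the family. DESeq2 gave 40434 genes a p-value. With a library left out, 22953 to 24814 genes were tested.

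At an unadjusted p under 0.05 the family had 7 higher genes, against 18 with library size only, 78 with no filter on low counts, 54 by DESeq2, 82 with the replicate block and 0 to 87 with a library left out. At an adjusted p under 0.05 it had 0, against 27 with the replicate block and 0 to 82 with a library left out. For all genes, 0 passed the adjusted threshold, against 26 higher and 13 lower by DESeq2, 1428 and 909 with the block, and 0 to 2507 higher and 0 to 2036 lower with a library left out. At an unadjusted p under 0.05 the 1251 higher and 487 lower genes became 2954 and 1146 with no filter, 1970 and 768 by DESeq2, 3396 and 2738 with the block, and 194 to 5310 and 102 to 4855 with a library left out.

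The replicate numbers are shared by 2 pairs only, and the labels do not say what a number stands for. The deviations of same-numbered libraries from their group means had a correlation of 0.453 and 0.76. With 2 UMBO libraries, their deviations are equal in size and opposite in sign. The 2 correlations are therefore not independent and do not show a pairing. In the block fit vehicle replicate 3, alone in its number, adds nothing to the group difference, and little is left to estimate the spread between mice. With the block the family's median log2 fold change was 0.76.

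With a library left out, medians of the log2 fold change lay between 0.118 and 1.52 for the family, 0.127 to 1.55 for the small subunit, 0.119 to 1.47 for the large subunit, 0.0615 to 1.38 for paralogues, 0.0809 to 1.81 for other symbols, 0.219 to 1.82 for Rack1 and Fau, 0.149 to 1.26 for other 5′ TOP genes, 0.0267 to 0.569 for mitochondrial ribosomal proteins, -0.0172 to 0.629 for biogenesis, 0.0449 to 0.663 for initiation factors, 0.0815 to 0.565 for elongation factors and -0.291 to -0.0502 for MYC and TOR genes. The lowest of each, apart from MYC and TOR genes, came without UMBO replicate 2. With library size only, biogenesis, initiation and elongation had medians of 0.479, 0.519 and 0.507, and with the block initiation had 0.267. The share of counts differed by 0.158 to 3.11 percentage points with a library left out, and by 0.408 without vehicle 2 and UMBO 2 together, an alternative chosen after seeing the data, as were the principal-transcript length, which kept 3 of the 5 highest genes, and the members with few shared windows. With library size only, 0 genes of the family were higher in each UMBO mouse than in any vehicle mouse.

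Without UMBO replicate 2, 5 of 88 genes had estimates below 0, among them the canonical Rpl30 (-0.04) and Rpl31 (0.00 to 2 decimals). The sign also turned for Rpl36al (-0.04), Rpl3l (0.06), Rps19bp1 (-0.05) and Rps27rt (-0.14), whose estimates without UMBO replicate 1 were 1.38, -0.83, 1.07 and 1.69, and for the log2 ratios Rpl36al/Rpl36a (-0.10) and Rps4l/Rps4x (0.11). With a library left out, the ratio Rpl36al/Rpl36a ranged from -0.19 (without vehicle replicate 3) to 0.13 and Rps4l/Rps4x from -1.19 to 0.11. The causes were not tested. For Rps27l/Rps27 the difference ranged from 0.40 to 0.96 in these settings. Its sign could not turn, because both UMBO ratios lay above every vehicle ratio. The same holds for Rpl22l1/Rpl22, where both lay below.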

Other observations

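Besides the protein-coding genes, 301 genes annotated as ribosomal protein pseudogenes were in the count tables, of which 204 had a count in every library. Their summed level was 168, 311 and 165 CPM in vehicle replicates 1 to 3 and 227 and 795 CPM in UMBO replicates 1 and 2, so UMBO replicate 1 again lay between vehicle replicates 3 and 2. Rps3a2 and Rps3a3, processed pseudogenes related to Rps3a1, had 107, 207, 127, 202 and 713 counts and 98, 141, 96, 132 and 298 counts, in the order vehicle 1, 2, 3, UMBO 1, 2. Reads of the parent genes can be assigned to such copies, and the division between them cannot be read from gene counts. The mitochondrially encoded genes held 5.7%, 5.29% and 6.61% of the counts with vehicle and 5.63% and 3.36% with UMBO, lowest in the library where the ribosomal protein genes were highest.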
